A study of Mus musculus with 4 samples.

Results

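The purinergic genes described here number 7 of the 24452 genes in the deposited table, and they were taken by name: the ectoenzyme genes Entpd1, Nt5e and Cd38, the adenosine deaminase gene Ada, the adenosine receptor gene Adora2a and the ATP-gated channel genes P2rx7 and P2rx4. The table lists them in capitals as ENTPD1, NT5E, CD38, ADA, ADORA2A, P2RX7 and P2RX4. They were measured by RNA sequencing in regulatory T cells (Tregs), the Foxp3-carrying CD4 T cells that restrain immune responses, taken from the liver of young Altre-KO mice (2 libraries) and young Altre-WT mice (2 libraries). Altre is a long non-coding RNA of Tregs. The labels give the genotype of each library as Altre-KO or Altre-WT with no further allele or agent, and they give no strain, sex, age in weeks, sorting gate or number of animals per library. Nothing in the labels ties a library to a mouse, so the spread between these libraries may be technical. The limma p-values rest on that spread, mostly as shared among genes of like level and less on each gene's own replicates. In bulk RNA, fewer cells of a type and less RNA per cell cannot be told apart. The comparison asks whether the transcripts of this pathway differ between Altre-KO and Altre-WT Tregs of the young liver.

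Cells that are stressed or dying release ATP and NAD, and a set of surface proteins reads and removes both. CD39, the product of Entpd1, cleaves ATP and ADP to AMP, and CD73, the product of Nt5e, cleaves AMP to adenosine. Adenosine acts on the A2A receptor, which raises cyclic AMP and dampens T cell activation, until adenosine deaminase turns it into inosine. Mouse Tregs are known for carrying CD39 and CD73 together. ATP itself opens P2X7, a cation channel that needs high ATP, and P2X4, which needs less. In mice the ectoenzyme ART2.2 uses NAD to modify and open P2X7, and CD38 consumes the same NAD.

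Levels are given in CPM, reads scaled so that every library has an equal sum over the genes in the table. The 4 libraries held between 1828772 and 3266132 estimated reads on listed genes, and a single read was worth 0.306 to 0.547 CPM. The share of a library's reads that lay on listed genes was 32.8% in Altre-KO replicate 1 and between 18.8% and 21.5% elsewhere. Altre itself was not analysed here, so the genotype labels were taken as given. Foxp3 was at 79.5 and 162 CPM in the Altre-KO libraries, against 160.4 and 140.5 CPM in the Altre-WT libraries. The 8 Treg and T cell markers summed to between 3331 and 3422 CPM in every library, with 1226 to 1272 CPM from Ikzf2 alone. Like Foxp3, Il2ra (164 CPM), Cd3e (53.9 CPM) and, by a small margin, Ikzf2 were lowest in Altre-KO replicate 1. Cd3d (241 CPM) and Cd3g (659 CPM) were highest there, and Ctla4 and Cd4 were neither. Cd8a was at most 0.42 CPM and Cd8b1 at most 8.83 CPM. Myeloid markers, 10 of 10 above 0 in some library, summed to 317.5 and 189.7 CPM in Altre-KO and to 217 and 319 CPM in Altre-WT, with the Kupffer cell marker Clec4f at or below 0.55 CPM. B cell markers (6 of 6 above 0) summed to 33.0 to 39.9 CPM and natural killer cell markers (4 of 4) to 5.04 to 16.7 CPM. The endothelial sum, 175.8 to 223.6 CPM, was nearly all Pecam1, which T cells also carry, with Kdr at or below 1.09 CPM. The hepatocyte markers Alb, Ttr, Apoc3 and Cyp3a11 were at 0 in all libraries. Stellate cell and fibroblast markers summed to at most 8.20 CPM, and red cell and platelet markers to at most 9.03 CPM.

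The stretches of 250 bases before the RefSeq start of 4 of these genes (GRCm38.p6, all on the plus strand, 5′ to 3′) are shown because the genes differ widely in level, as described further on. They include the gene with the highest level (Nt5e, chr9:88327359-88327608) and the ectoenzyme gene with the fewest CpG dinucleotides (Cd38, chr5:43868559-43868808). Both channel genes, neighbours on the same chromosome, are shown too (P2rx7, start 1 of 2 only, chr5:122643677-122643926, and P2rx4, chr5:122707294-122707543). By the GENCODE M21 gene coordinates given below, the Nt5e and Cd38 stretches and the last bases of the P2rx7 stretch lie inside the gene. No relation between these stretches and level was tested. Capitals mark the motifs searched on both strands, which are GGGCGG (the GC box), TGACG (part of the cyclic AMP response element), TGTTTA (the forkhead core) and TGTGGT (the Runx site).
Nt5e: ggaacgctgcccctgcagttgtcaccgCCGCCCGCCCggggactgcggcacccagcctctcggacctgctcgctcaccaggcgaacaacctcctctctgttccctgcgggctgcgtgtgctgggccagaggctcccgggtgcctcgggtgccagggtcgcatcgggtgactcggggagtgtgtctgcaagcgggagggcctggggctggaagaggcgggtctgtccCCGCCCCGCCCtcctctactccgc
P2rx7: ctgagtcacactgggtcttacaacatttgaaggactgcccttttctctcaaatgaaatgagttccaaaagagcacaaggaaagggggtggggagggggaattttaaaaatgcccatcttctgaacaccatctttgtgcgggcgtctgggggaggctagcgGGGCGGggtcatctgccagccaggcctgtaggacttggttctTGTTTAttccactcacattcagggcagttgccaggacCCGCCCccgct
P2rx4: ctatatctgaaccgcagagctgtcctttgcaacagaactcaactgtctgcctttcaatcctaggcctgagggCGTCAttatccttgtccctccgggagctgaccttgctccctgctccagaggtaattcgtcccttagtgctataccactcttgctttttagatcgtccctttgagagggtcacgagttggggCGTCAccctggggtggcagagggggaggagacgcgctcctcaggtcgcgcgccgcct
Cd38: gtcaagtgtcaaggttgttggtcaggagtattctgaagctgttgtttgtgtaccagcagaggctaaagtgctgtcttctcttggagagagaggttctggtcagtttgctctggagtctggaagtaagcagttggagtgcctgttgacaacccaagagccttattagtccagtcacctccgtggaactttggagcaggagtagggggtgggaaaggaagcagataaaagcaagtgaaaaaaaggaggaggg

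The Nt5e stretch held 21 CpG dinucleotides and 4 matches to GGGCGG, in overlapping pairs. That of P2rx4 held 13 CpG and 2 matches to TGACG, that of P2rx7 held 6 CpG, 2 matches to GGGCGG and 1 to TGTTTA, and that of Cd38 held 1 CpG and no match to the 4 motifs. The median over all 32851 promoters in the table was 6 CpG. Among those promoters, 32.7% held GGGCGG, 17.8% TGACG, 12.03% TGTTTA and 14.05% TGTGGT. Entries were found for 6 of the 7 genes, with none for Adora2a. Both Entpd1 starts had 1 match to TGACG, and Ada had 1 match to GGGCGG. The stretch before P2rx7 start 2 (chr5:122650133-122650382), not printed above, held 4 CpG and no match to the 4 motifs. Which P2rx7 start these cells use was not tested. A match is a description of the letters and no evidence that a factor binds.

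None of the 7 genes passed the test between genotypes. Limma over all 10486 tested genes, with Benjamini-Hochberg adjustment and an adjusted p of 0.05 as threshold, called 0 of the 7, and 0 had an unadjusted p under 0.05. Limma-voom on estimated reads likewise called 0, with 0 at an unadjusted p under 0.05. Over all tested genes 0.0381% were called. Their direction was mixed, with 4 log2 fold changes above 0 and 3 below, where 47.9% of all tested genes were above 0. Their median log2 fold change, Altre-KO minus Altre-WT on the log2(CPM + 1) scale, was 0.06, against -0.01 over all tested genes. In 3 of the 7, P2rx7, Cd38 and Ada, both Altre-KO libraries lay above both Altre-WT libraries, and none lay below. Over all tested genes 14.7% lay above in this way and 16.1% below, 30.8% together. All 7 passed the filter on low values, a minimum of 4.22 CPM in at least 2 libraries, and the one value below that minimum was that of Ada in Altre-WT replicate 1.

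**Figure D1:**
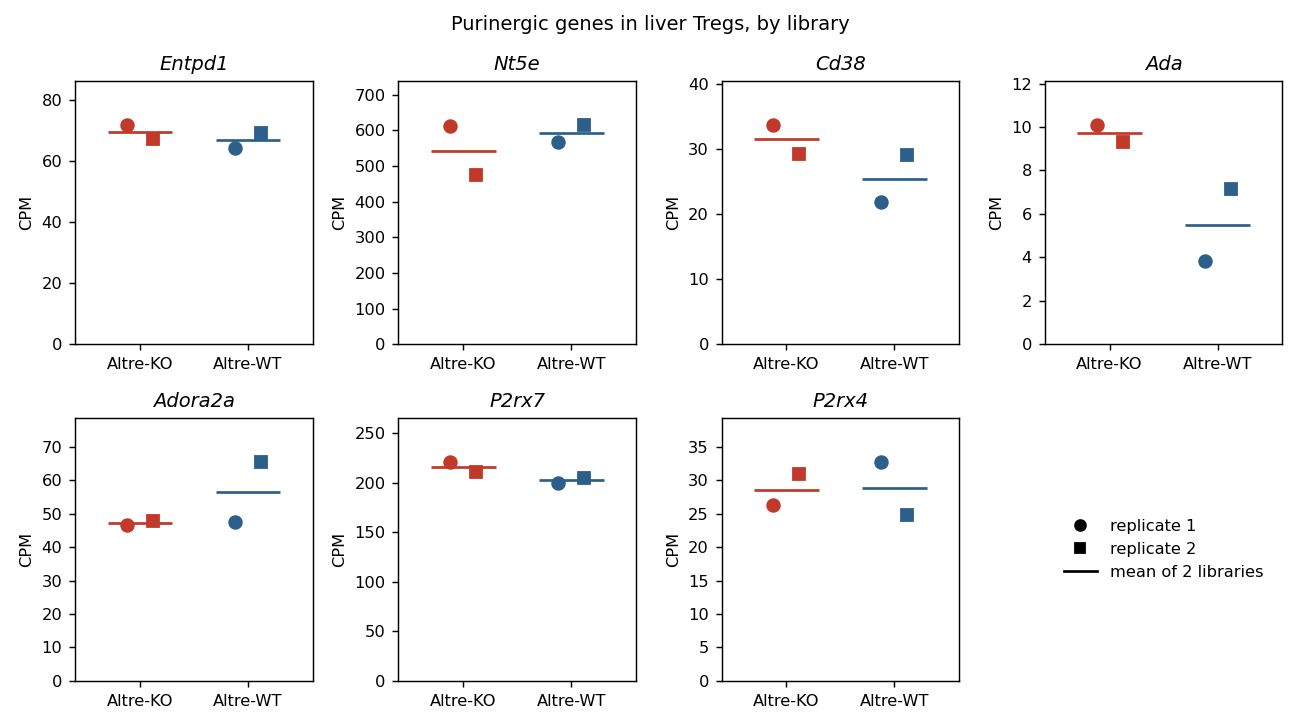
Level of each gene in CPM (vertical axis, from 0) in the Altre-KO and Altre-WT libraries, with replicate 1 as circles, replicate 2 as squares and a line at the mean of 2 libraries. The genotypes overlap for Entpd1, Nt5e, Adora2a and P2rx4, while both Altre-KO libraries lie above both Altre-WT libraries for Cd38, Ada and P2rx7.

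On the path from ATP to adenosine, Entpd1 stood nearly level. Entpd1 (chromosome 19, 40612366 to 40741602, plus strand, protein-coding, GRCm38 with GENCODE M21) was at 72.0 and 67.3 CPM in Altre-KO, against 64.5 and 69.4 CPM in Altre-WT. The libraries of each genotype interleaved, with Altre-KO replicate 2 between both Altre-WT libraries. Entpd1 had a log2 fold change of 0.06 (SE 0.21, 95% interval -0.37 to 0.48, limma adjusted p = 0.999). On the fold scale this interval runs from 0.774 to 1.40. With a library left out it ran from 0.0049 without Altre-WT replicate 1 and 0.0090 without Altre-KO replicate 1 to 0.10 without Altre-KO replicate 2 and 0.11 without Altre-WT replicate 2.

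Nt5e, which makes the adenosine, had the highest level per exon length of the 7. Nt5e (chromosome 9, 88327197 to 88372092, plus strand, protein-coding) was at 611 and 474 CPM in Altre-KO, against 567 and 615 CPM in Altre-WT. A single library stood low, Altre-KO replicate 2, and Altre-KO replicate 1 lay between the Altre-WT values. Limma gave Nt5e a log2 fold change of -0.13 (SE 0.15, 95% interval -0.45 to 0.18, limma adjusted p = 0.999). It was 0.049 without Altre-KO replicate 2 and -0.32 without Altre-KO replicate 1, where the unadjusted p was 0.0254. The lowest limma adjusted p of Nt5e over the 14 alternatives was 0.925. The myeloid marker sum was also lowest in Altre-KO replicate 2, at 189.7 CPM, and highest in Altre-WT replicate 2, as Nt5e was. Its largest marker was Lyz2, at 165 and 66.05 CPM in Altre-KO, against 102 and 155 CPM in Altre-WT. Csf1r, Adgre1, C1qb and Itgam were instead lowest in Altre-WT replicate 1. The part of myeloid cells in the Nt5e values was not tested.

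The balance between the enzymes was read within each library, where scaling cancels. Nt5e over Entpd1, both in CPM per kb of merged exons, was 5.51 and 4.57 in Altre-KO, against 5.70 and 5.75 in Altre-WT. Both Altre-KO ratios lay below both Altre-WT ratios, by 0.19 on the log2 scale on average. Most of that gap came from Altre-KO replicate 2, the library with low Nt5e. This ratio was not tested across the table, and 2 libraries against 2 cannot reach a 2-sided exact permutation p below 0.333.

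Ada, which removes adenosine, had the widest gap of the 7 and the fewest reads. Ada (chromosome 2, 163726584 to 163750239, minus strand, protein-coding) was at 10.1 and 9.31 CPM in Altre-KO, against 3.83 and 7.15 CPM in Altre-WT. Both Altre-KO libraries lay above both Altre-WT libraries, and Altre-WT replicate 1 was the lowest. These levels rest on 33 and 22 estimated reads in Altre-KO, against 7 and 17 in Altre-WT. The exact 95% Poisson intervals, which cover counting error only, were 6.95 to 14.2 and 5.84 to 14.1 CPM in Altre-KO. In Altre-WT they were 1.54 to 7.89 and 4.16 to 11.4 CPM. Each Altre-KO interval overlapped each Altre-WT interval, so these intervals did not separate the genotypes. The log2 fold change was 0.77 (SE 0.51, 95% interval -0.28 to 1.82, limma adjusted p = 0.999), a 1.71-fold higher level that did not pass. It was 0.39 without Altre-WT replicate 1 and 1.15 without Altre-WT replicate 2.

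The ratio of Adora2a to Ada in CPM per kb was 3.01 and 3.36 in Altre-KO, against 8.12 and 5.996 in Altre-WT, and that of the adenosine kinase gene Adk, whose product returns adenosine to AMP inside the cell, to Ada was 1.35 and 1.47 in Altre-KO, against 2.61 and 1.86 in Altre-WT. Both ratios were lower in both Altre-KO libraries, and both share the few reads of Ada. Neither was tested across the table.

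Adora2a, the receptor through which adenosine restrains T cells, was flat in 3 of the 4 libraries. Adora2a (chromosome 10, 75316877 to 75334784, plus strand, protein-coding) was at 46.5 and 47.8 CPM in Altre-KO, against 47.6 and 65.6 CPM in Altre-WT. Altre-WT replicate 2 alone stood high, and the other Altre-WT library lay between the Altre-KO values. The log2 fold change was -0.24 (SE 0.24, 95% interval -0.73 to 0.25, limma adjusted p = 0.999). Without Altre-WT replicate 2 it was -0.011, and without Altre-WT replicate 1 it was -0.47. The other adenosine receptor genes did not pass the filter: Adora1 ran from 0.31 to 6.56 CPM, and Adora2b and Adora3 stayed at or below 2.19 CPM in all libraries.

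The ATP-gated channel gene P2rx7 was steady, with the narrowest spread of the 7. P2rx7 (chromosome 5, 122643911 to 122691432, plus strand, protein-coding) was at 221 and 211 CPM in Altre-KO, against 200.1 and 205 CPM in Altre-WT. Both Altre-KO libraries lay above both Altre-WT libraries, by a small margin. P2rx7 had a log2 fold change of 0.09 (SE 0.16, 95% interval -0.23 to 0.42, limma adjusted p = 0.999). The fold interval runs from 0.852 to 1.34. Its width was set mostly by the spread of other genes of like level, and less by the P2rx7 replicates. The replicates of a genotype differed by 0.067 in Altre-KO and 0.035 in Altre-WT on the log2 scale, against median gaps over all tested genes of 0.27 in Altre-KO and 0.24 in Altre-WT.

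P2rx4, the neighbouring channel gene 16.1 kb downstream, had a lower level per exon length than P2rx7. P2rx4 (chromosome 5, 122707544 to 122729738, plus strand, protein-coding) was at 26.3 and 30.9 CPM in Altre-KO, against 32.8 and 24.8 CPM in Altre-WT. Both Altre-KO values fell inside the range of the Altre-WT values. The log2 fold change was -0.00016 (SE 0.29, 95% interval -0.60 to 0.60, limma adjusted p = 0.9998). Its sign turned under 6 of 14 alternatives, and it ran from -0.20 to 0.19 over all of them. The ratio of P2rx7 to P2rx4 in CPM per kb was 9.89 and 8.04 in Altre-KO, against 7.18 and 9.73 in Altre-WT, with overlap. The other 5 P2X genes, at or below 1.69 CPM in all libraries, and all 7 P2Y receptor genes, at or below 6.31 CPM, did not pass the filter.

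Cd38, which degrades NAD, was somewhat higher in Altre-KO without passing the test. Cd38 (chromosome 5, 43868553 to 43912375, plus strand, protein-coding) was at 33.7 and 29.2 CPM in Altre-KO, against 21.9 and 29.0 CPM in Altre-WT. Altre-WT replicate 1 was low, and Altre-WT replicate 2 lay just under Altre-KO replicate 2, both on 69 estimated reads. Limma gave Cd38 a log2 fold change of 0.31 (SE 0.29, 95% interval -0.30 to 0.91, limma adjusted p = 0.999). It was 0.11 without Altre-WT replicate 1 and 0.50 without Altre-WT replicate 2. B cells and macrophages can also carry CD38. The B cell marker sum was 36.7 and 33.0 CPM in Altre-KO, against 39.9 and 34.9 CPM in Altre-WT, and the myeloid sum given above overlapped between genotypes too. Of the 10 myeloid markers, Adgre1 was at 21.4 and 17.4 CPM in Altre-KO, against 7.11 and 21.0 CPM in Altre-WT, and C1qb at 22.7 and 16.1 CPM in Altre-KO, against 9.30 and 19.3 CPM in Altre-WT. Both were lowest in Altre-WT replicate 1, as were Csf1r, Itgam and Cd38. Other markers went another way, with Lyz2, C1qa, C1qc and Cd68 lowest in Altre-KO replicate 2. C1qc was highest in Altre-WT replicate 1, at 30.1 CPM, and Clec4f and Timd4 stayed at or below 1.68 CPM. The part of these cells in the Cd38 values was not tested. An annotated antisense gene, Gm16015, lies across from Cd38 and shares 0 exonic bases with it.

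Art2b, the mouse gene of the NAD-using enzyme that modifies P2X7, was at 41.6 and 38.1 CPM in Altre-KO, against 48.1 and 43.7 CPM in Altre-WT (log2 fold change -0.20, limma adjusted p = 0.999). Cd38 over Art2b in CPM per kb was 0.588 and 0.557 in Altre-KO, against 0.330 and 0.482 in Altre-WT. Both Altre-KO ratios were higher than both Altre-WT ratios, with Art2b lower and Cd38 higher in both Altre-KO libraries. This ratio was not tested across the table, and the limit on p for 2 libraries against 2 holds here too. Art2b has a close relative, Art2a-ps, at 31.5 and 23.3 CPM in Altre-KO and 30.1 and 34.9 CPM in Altre-WT. Reads may be shared between both genes, so each value alone is uncertain. The estimated reads of both were whole within 0.02 of a read, and the likeness of their transcripts was not measured here. No other gene had a transcript at least 90% identical over 200 or more bases to any of the 7, and the estimated reads of all 7 were whole within 0.02 of a read.

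**Figure D2:**
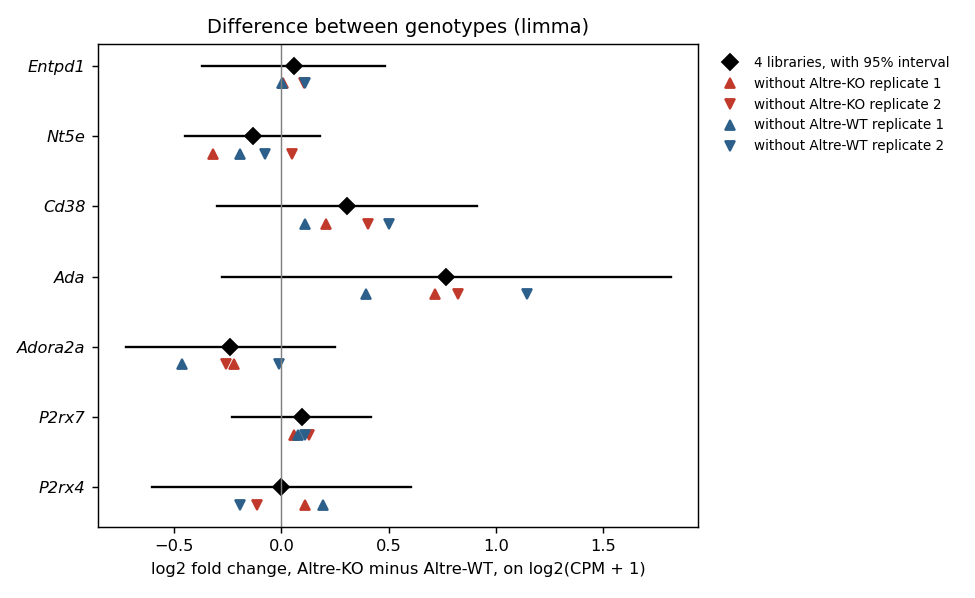
Log2 fold change of each gene, Altre-KO minus Altre-WT on log2(CPM + 1) (horizontal axis), from all 4 libraries with its 95% limma interval (diamonds and bars), and with each library left out in turn (triangles). Every interval spans 0, and the estimates for Nt5e and P2rx4 fall on both sides of 0 when a library is left out.

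The genes were then ranked by level per length, as CPM per kb of merged GENCODE M21 exons. Nt5e led, at 63.0 ± 11.3 CPM per kb in Altre-KO and 68.7 ± 3.94 CPM per kb in Altre-WT (SD, n = 2 each). P2rx7 followed, at 36.2 ± 1.195 CPM per kb in Altre-KO and 33.9 ± 0.592 CPM per kb in Altre-WT. Both stood high among the 10408 tested genes with a length, with Nt5e at percentile 94.8 and P2rx7 at percentile 88.1 of the 4-library mean.

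Adora2a came next, at 15.4 ± 0.300 CPM per kb in Altre-KO and 18.5 ± 4.16 CPM per kb in Altre-WT (percentile 70.8). Entpd1 followed, at 12.5 ± 0.587 CPM per kb in Altre-KO and 11.996 ± 0.613 CPM per kb in Altre-WT (percentile 60.1). The transcript of CD39, which acts first in the chain, stood below that of CD73 in every library. Cd38 stood at 8.08 ± 0.813 CPM per kb in Altre-KO and 6.54 ± 1.296 CPM per kb in Altre-WT, below the median tested gene at 9.13 CPM per kb. P2rx4 (4.07 ± 0.461 CPM per kb in Altre-KO and 4.10 ± 0.806 CPM per kb in Altre-WT) and Ada (4.85 ± 0.279 CPM per kb in Altre-KO and 2.74 ± 1.17 CPM per kb in Altre-WT) were lowest, and their values overlapped. Each of the other neighbours in this order was separated, every library of the higher gene lying above every library of the lower.

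The order depended on the length in a single place. With the length of the annotated principal transcript, which was added after seeing the data, P2rx4 averaged 10.6 CPM per kb over the 4 libraries and passed above Cd38 at 8.70 CPM per kb. The merged exons of P2rx4 came to 7.03 kb. Nt5e then averaged 142 CPM per kb, P2rx7 42.4, Adora2a 19.98, Entpd1 16.2 and Ada 4.50 CPM per kb, in the same order as before.

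**Figure D3:**
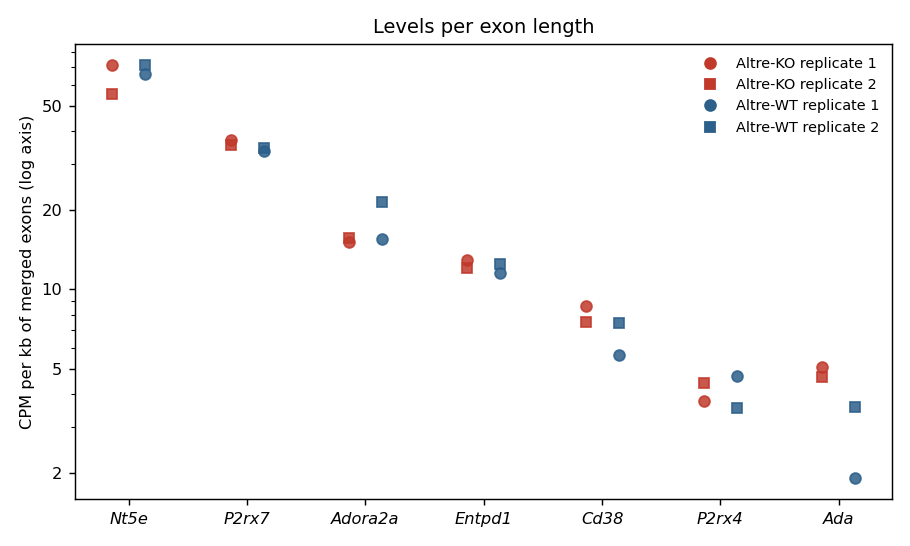
Level of each gene in CPM per kb of merged exons (log axis) in every library, with Altre-KO in red left of Altre-WT in blue. Nt5e and P2rx7 lie above 33 CPM per kb in every library, and P2rx4 and Ada overlap at the low end.

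Genes with the most similar pattern over the 4 libraries were found by the distance between log2(CPM + 1) values centred on each gene's mean, over 9996 other tested genes. Nearest were Cd2 and Mtfmt to Entpd1, Nsfl1c and Tuba1a to Nt5e, Cxcr4 and Pip5k1b to Adora2a, and Nipal3 and Ypel3 to P2rx4. Nearest to P2rx7 were Slc25a3 and Ms4a4b, and to Cd38 Yae1d1 and Slc4a8. Nearest to Ada were Abcb1b, a drug efflux pump gene at 18.7 and 17.4 CPM in Altre-KO and 7.66 and 13.7 CPM in Altre-WT (distance 0.017), and Ppp1r3b (distance 0.078). With 4 libraries many genes share a flat pattern: 226 lay within a distance of 0.1 of P2rx7 and 220 of Entpd1, against 2 of Ada.

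The wider pathway was read from 10 lists, which hold 133 listed genes counted once, 90 of them tested. Limma called 0 as higher and 0 as lower in Altre-KO, 1 had an unadjusted p under 0.05, against 3.66% of all tested genes, and limma-voom called 0. Of the 90, 44 had a log2 fold change above 0 and 46 below, with a median of -0.0061.

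The list named ectonucleotidases and NAD-consuming ectoenzymes holds 18 genes, and includes the peptidase gene Dpp4, which is neither. Of the 18, 10 were tested, and 0 passed in either direction. The median log2 fold change of the 10, Dpp4 included, was -0.17, with 7 below 0. Beside the genes above, Dpp4, a surface peptidase that binds adenosine deaminase in humans, was at 138 and 102 CPM in Altre-KO, against 164 and 130.3 CPM in Altre-WT (log2 fold change -0.29). Enpp1, a pyrophosphatase that cleaves ATP, had a log2 fold change of 0.21, Acpp, a phosphatase that can cleave AMP, -0.31, Art3 -0.76 and Art4 -0.09. The alkaline phosphatase gene Alpl and the NAD-consuming Bst1 were among the 8 below the filter, at or below 2.94 CPM.

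Genes for adenosine handling were spread around 0, with 19 of 27 listed members tested, 10 above 0 and 9 below, a median of 0.0086 and 0 passing in either direction. The concentrative nucleoside transporter gene Slc28a2 was at 304 and 249 CPM in Altre-KO, against 291 and 256 CPM in Altre-WT, and the equilibrative transporter gene Slc29a1 at 78.1 and 61.8 CPM in Altre-KO, against 89.1 and 55.1 CPM in Altre-WT. Both genotypes overlapped for these importers of adenosine, and the estimated reads of Slc28a2 were fractional. Adk was at 58.2 and 58.4 CPM in Altre-KO, against 42.7 and 56.8 CPM in Altre-WT (log2 fold change 0.24). The members with the smallest p beside Ada were the pyrimidine 5′-nucleotidase gene Nt5c3 (0.45), the deoxycytidine kinase gene Dck (-0.27) and the purine salvage gene Hprt (0.23). Pnp, which follows Ada in the chain, had a log2 fold change of -0.05, but it has a close copy in Pnp2 and its estimated reads were fractional, so its value is uncertain.

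Downstream of the A2A receptor, 24 of 28 genes of cyclic AMP signalling were tested, with 11 above 0, 13 below, a median of -0.04 and 0 passing in either direction. Pde7a, a phosphodiesterase that removes cyclic AMP, was at 119.7 and 104 CPM in Altre-KO, against 84.8 and 83.7 CPM in Altre-WT. Both Altre-KO libraries were higher (log2 fold change 0.40, SE 0.19, unadjusted p = 0.0433, limma adjusted p = 0.999), and it is the gene with an unadjusted p under 0.05 among the 90. The stimulatory G protein gene Gnas was at 253 and 259 CPM in Altre-KO, against 290 and 319 CPM in Altre-WT (log2 fold change -0.25). Prkar2b, a regulatory subunit of protein kinase A, was at 4.29 and 1.27 CPM in Altre-KO, against 7.66 and 6.73 CPM in Altre-WT (log2 fold change -1.24), on few reads. Adcy7, an adenylyl cyclase of lymphocytes, was at 511 and 503 CPM in Altre-KO, against 459 and 434 CPM in Altre-WT (log2 fold change 0.18).

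Of the genes around P2X7, 10 of 11 downstream genes were tested, 3 above 0 and 7 below, with a median of -0.04 and 0 passing in either direction. The pore gene Gsdmd had a log2 fold change of 0.38 and the inflammasome kinase gene Nek7 0.22, while Adam17 and Adam10, proteases that shed surface proteins after P2X7 opens, had -0.01 and -0.04. Panx1, a channel that releases ATP, was at 105.3 and 80.9 CPM in Altre-KO, against 95.7 and 69.4 CPM in Altre-WT (log2 fold change 0.18). It was 1 of 3 tested ATP release genes of 7, with the vesicular nucleotide transporter gene Slc17a9 (-0.22) and Calhm2 (0.22), and 0 passed in either direction.

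NAD synthesis and use had 17 of 20 members tested, 11 above 0 and 6 below, a median of 0.06 and 0 passing in either direction. Nadsyn1, the NAD synthetase gene, was at 23.9 and 23.7 CPM in Altre-KO, against 15.9 and 15.1 CPM in Altre-WT (log2 fold change 0.59, SE 0.33, limma adjusted p = 0.999). Nmnat3 had a log2 fold change of 0.61 and the poly-ADP-ribose polymerase gene Parp1 0.26. Among 5 intracellular relatives of Entpd1, 4 were above 0, with a median of 0.08 and 0 passing in either direction. Entpd7 (0.91, on few and fractional reads), Entpd5 (0.23) and Entpd6 (0.08) had the smallest p.

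**Figure D4:**
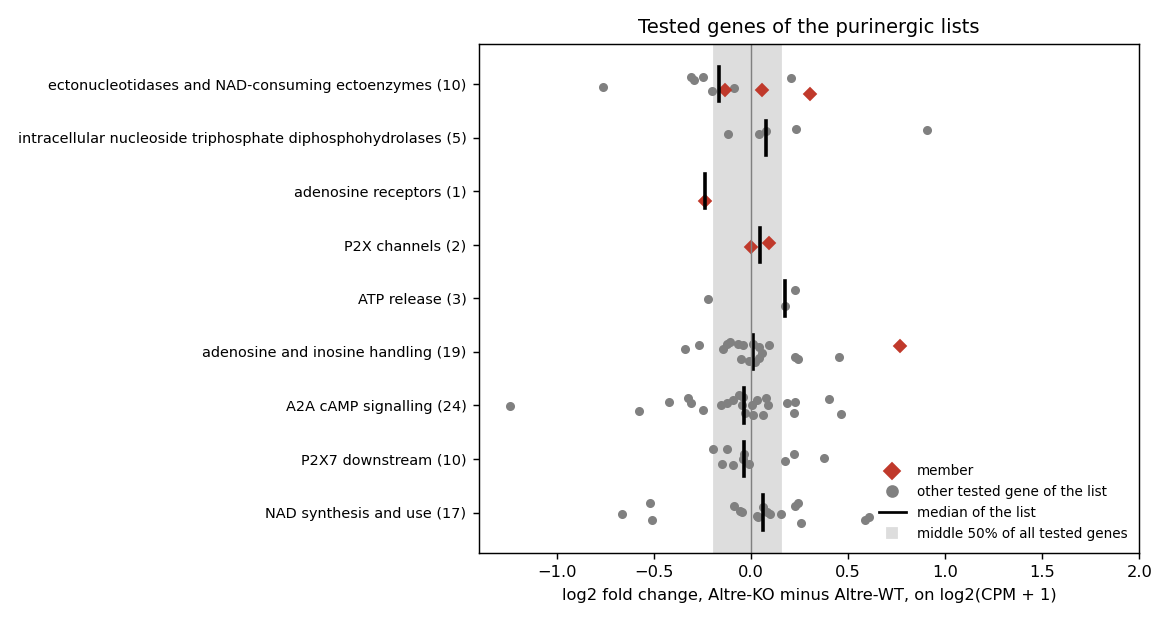
Log2 fold change, Altre-KO minus Altre-WT on log2(CPM + 1) (horizontal axis), of every tested gene in 9 lists, with the 7 genes described here as red diamonds, other genes as grey points and list medians as black bars. The grey band holds the middle 50% of all tested genes, and the medians of all lists but the adenosine receptors, which hold 1 tested gene, and ATP release, which holds 3, lie inside it.

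The authors' deposited table gave all 7 genes an adjusted p of 1 in its own comparison of Altre-KO over Altre-WT. In the authors' deposited table the log2 fold change was largest for Ada, at 0.82, followed by Cd38 at 0.31, and lowest for Adora2a, at -0.26. Of 24452 genes, 3, or 0.0123%, in the authors' deposited table had an adjusted p under 0.05, none of them among the 7.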

How the data were processed

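RNA was extracted from liver Tregs of 2 Altre-KO and 2 Altre-WT libraries with a micro-scale column kit and sequenced from a SMARTER mRNA kit, per the labels' protocols. STAR, cutadapt and DESeq2 with build mm10 are named in the submitters' processing notes, while counter, strand setting and annotation were not given in the sources used here. RPM values were deposited by the authors, and by their sums are scaled to more reads than those on listed genes and carry an added 0.0001. They also deposited CPM values, so named per the file headers, whose columns share 1 total over listed genes. The authors' mean CPM per genotype, the log2 of their ratio and a p-value with its adjusted form were deposited too, from a test that no header names.

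What 1 read is worth was estimated from the steps of the RPM values, of which 93.1% to 93.8% above 0 came out whole within 0.02 of a read. As the rest were fractional, the main fit did not use the values as counts. Limma-voom did take the estimated reads as counts, and the Poisson intervals took them rounded. Limma 3.58.1 (R 4.3.3) with variances following the mean-variance trend was fitted to log2(CPM + 1), with genotype as the only term, over the 10486 genes with at least 10 estimated reads at the median depth (4.22 CPM) in at least 2 libraries. The 20.8 prior degrees of freedom mean that SEs draw largely on the trend over all genes. Symbols in capitals matched GENCODE M21 (23519), else RefSeq symbols (269) or synonyms (547), and 117 matched neither. Blastn 2.17.0 searched for near-identical transcripts. Promoter sequences are from RefSeq (GRCm38.p6). Named genes were the 7, every tested ectoenzyme and receptor, the 3 other tested genes with the smallest p in each remaining list, and the 2 tested genes nearest in pattern to each of the 7. Adcy7, Adam10, Adam17, Slc28a2, Slc29a1, Adk and Pnp fall outside this rule and were chosen after their values were seen. Genes and lists were chosen with earlier results of these data known. Alternatives covered filter, pseudocount, scaling, test, a replicate block and leaving out each library. Intervals from reads cover counting error only.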

Additional observations from a re-analysis of the deposited data

How the results depend on the processing

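The call of 0 of the 7 genes and of 0 of the tested pathway genes held under all 14 alternatives, 4 of which leave out a library, and Ada was not tested where a mean of at least 20 CPM was required. Over all genes 4 were called, against 2 with a pseudocount of 0.1, 1 with robust moderation and between 6 and 16 with a library left out (16 without Altre-WT replicate 2 and 14 without Altre-KO replicate 2); the cause was not tested. With the filter removed, genes at 0 in every library stayed out. The replicate differences of both genotypes were not visibly related (Pearson r -0.010 across 10486 genes, which are not independent replicates). This cannot show whether libraries of the same replicate number were prepared together, and the labels do not say. With the replicate number as a block 6 genes were called, none of the 7. The log2 fold change of P2rx4 turned to 0.00012 with a pseudocount of 0.1, 0.029 with median-of-ratios size factors, 0.018 with totals that leave out noncoding RNAs and ribosomal protein genes and 0.0046 with limma-voom, and ran from -0.20 to 0.19 with a library left out. That of Nt5e ran from -0.32 to 0.049 with a library left out. Entpd1, Adora2a, P2rx7, Ada and Cd38 kept their direction under every alternative run. No scaling moved the median of all genes by more than 0.030. Depth limits Ada most, at 7 to 33 reads a library, and its interval still includes a 3.52-fold difference.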
